A study of Mus musculus with 27 samples.

Results

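The regions described here are stretches of the mouse genome in which CpG sites were dense and almost unmethylated in control microglia. Chromosomes 1 to 19 were cut into 1 kb windows. A window was a member when it held at least 20 CpG positions listed in both bisulfite libraries and when its mean methylated fraction in the control library was under 0.10. Of 2167530 windows with a shared position, 71662 held at least 20 and are called CpG-dense here. Of these, 20404 were members. The control values chose the members, so their low control level is a definition and not a result. For the comparison with ND1 cells, 20189 windows were therefore chosen on the odd-ranked positions of each window and measured on the even-ranked ones, which the choice did not use. Neighbouring positions can lie on the same sequenced fragment, so the odd and even sets are not fully independent.

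A CpG is a cytosine followed by a guanine on the same strand, and in mammals most of these cytosines carry a methyl group. The exceptions are CpG islands, stretches of dense CpG that cover the start sites of nearly all housekeeping genes and of many developmental regulators, and that stay unmethylated in most somatic cells whether the gene is active or silent. Proteins with a CXXC domain, such as KDM2B and CXXC1, bind unmethylated CpG and bring histone-modifying complexes with them, DNMT1 copies methylation after replication, and TET enzymes start its removal.

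Methylation was measured in 1 library of control microglia and 1 library of ND1-transduced microglia, so no replicate spread exists and no test of methylation was made. Both came from primary microglia of wild-type C57BL/6 mice, prepared from cortex at postnatal day 1 and grown in culture. Transduced cells received lentivirus for ND1 together with lentivirus for M2rtTA, the doxycycline-dependent activator, in the presence of polybrene. They were then kept in a neuronal induction medium (Neurobasal, B27 and the factors BDNF, GDNF and NT3) with a single dose of doxycycline. What ND1 stands for, the medium of control cells and the day of the bisulfite libraries are not stated in the labels. RNA was sequenced from control and ND1 cells at day 2 and day 7 and from neurons cultured from cortex of the same age and strain, with 3 libraries in each of the 5 groups. The labels do not say whether the 3 are separate cultures, so p-values measure only the spread between these libraries. All are bulk samples that may hold converted and unconverted cells, and a change in cell number cannot be told apart from a change within a cell.

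The start-site sequences below show what such windows look like at base level. Each is the 250 bases before a RefSeq start site (GRCm38.p6, the mm10 coordinates of the methylation files), read in the direction of the gene, with every CpG in capitals. Gapdh, a glycolytic enzyme, stands for housekeeping genes. Nkx2-2 and Neurod1 encode neural transcription factors, Lhx2 a LIM-homeodomain factor of the developing forebrain, and Ruvbl1 an ATPase of chromatin-remodelling complexes; each starts in a member window. Dazl, a germ-cell RNA-binding protein, starts in a window that is as CpG-rich but is no member.
Gapdh, chr6:125165774-125166023 (minus strand): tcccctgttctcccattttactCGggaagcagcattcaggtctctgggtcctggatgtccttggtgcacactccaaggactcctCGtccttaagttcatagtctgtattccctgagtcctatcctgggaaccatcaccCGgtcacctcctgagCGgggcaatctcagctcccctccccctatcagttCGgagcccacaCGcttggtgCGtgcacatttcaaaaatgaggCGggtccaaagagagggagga
Nkx2-2, chr2:147186403-147186652 (minus strand): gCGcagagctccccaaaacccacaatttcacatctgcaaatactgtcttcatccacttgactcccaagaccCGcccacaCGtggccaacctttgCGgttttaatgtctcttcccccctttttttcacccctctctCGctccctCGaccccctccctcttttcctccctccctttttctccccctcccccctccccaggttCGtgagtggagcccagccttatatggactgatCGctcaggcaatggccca
Neurod1, chr2:79456637-79456886 (minus strand): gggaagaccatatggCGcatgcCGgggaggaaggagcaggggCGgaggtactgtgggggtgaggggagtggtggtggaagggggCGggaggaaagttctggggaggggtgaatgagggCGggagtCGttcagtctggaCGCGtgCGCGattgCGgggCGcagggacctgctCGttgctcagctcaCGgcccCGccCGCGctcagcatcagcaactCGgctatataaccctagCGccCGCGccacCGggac
Lhx2, chr2:38351058-38351307 (plus strand): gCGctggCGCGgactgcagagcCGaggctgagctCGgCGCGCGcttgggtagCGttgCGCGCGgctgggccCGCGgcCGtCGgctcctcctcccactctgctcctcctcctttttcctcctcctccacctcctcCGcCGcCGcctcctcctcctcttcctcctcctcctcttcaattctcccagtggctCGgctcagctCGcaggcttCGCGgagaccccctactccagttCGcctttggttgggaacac
Ruvbl1, chr6:88465159-88465408 (plus strand): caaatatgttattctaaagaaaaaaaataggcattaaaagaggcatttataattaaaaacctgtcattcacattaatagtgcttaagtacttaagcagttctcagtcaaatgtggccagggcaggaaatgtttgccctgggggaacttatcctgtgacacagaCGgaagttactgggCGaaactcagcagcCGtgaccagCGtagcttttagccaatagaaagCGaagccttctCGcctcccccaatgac
Dazl, chr17:50293621-50293870 (minus strand): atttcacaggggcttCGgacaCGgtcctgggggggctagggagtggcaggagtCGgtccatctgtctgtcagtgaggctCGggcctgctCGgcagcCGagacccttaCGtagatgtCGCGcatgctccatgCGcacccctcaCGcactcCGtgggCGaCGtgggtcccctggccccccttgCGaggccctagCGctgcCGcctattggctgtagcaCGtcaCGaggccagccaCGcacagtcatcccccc
In the stretch printed for Neurod1, 18 of the 22 CpGs were measured, with a mean fraction of 0.0142 in control and 0.0298 in ND1 cells. The 20 CpGs before Dazl, of which 17 were measured, averaged 0.983 in control and 0.982 in ND1 cells. Dense CpG letters thus occurred at both ends of the methylation scale. All 6 CpGs before the Ruvbl1 start were at 0 in both libraries. The 8 CpGs before Gapdh averaged 0.00189 in control and 0.00963 in ND1 cells. Of the 8 CpGs before Nkx2-2, 5 were measured and averaged 0.0221 in control and 0.0289 in ND1 cells. For Lhx2, 8 of 24 were measured and averaged 0.0314 and 0.0291.

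CpG-dense windows fell into a group near 0 and a group near 1 in both libraries. In control cells, 28.5% of them averaged under 0.10, 36.4% averaged 0.80 or more and 35.1% lay between. In ND1 cells, 28.3% averaged under 0.10. Members held a median of 51 shared positions and 1101033 positions in all, or 7.49% of the positions shared by the libraries. Over the members, the mean of the window means was 0.0348 in control and 0.0359 in ND1 cells, and 19887 members (97.5%) also averaged under 0.10 in ND1 cells. Only 5 members reached 0.15 in ND1 cells, and 1 reached 0.20. Position by position, 68.09% of CpGs in members were listed at 0 in control and 63.23% in ND1 cells, and 50.3% at 0 in both. Fractions of 0.5 or more made up 0.849% of positions in control and 0.878% in ND1 cells, with 7652 positions at that level in both libraries. The files give no read counts, so the depth of a fraction is not known and its counting interval cannot be computed.

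**Figure D1:**
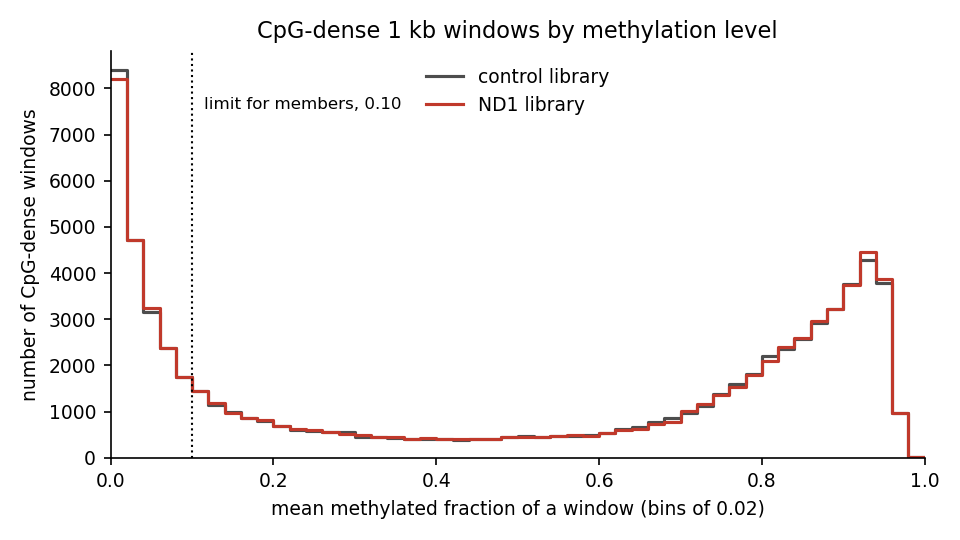
Number of CpG-dense 1 kb windows (vertical axis) by mean methylated fraction over all shared positions (horizontal axis, bins of 0.02) in the control library (grey) and the ND1 library (red). The dotted line marks the 0.10 limit that defines members, and the 2 libraries follow nearly the same outline, with 28.5% and 28.3% of windows below the limit.

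Measured on positions that the choice did not use, members stayed unmethylated in ND1 cells. On even-ranked positions the 20189 windows averaged 0.0346 in control and 0.0355 in ND1 cells, a mean difference of 0.000922 with an SD of 0.0114 over windows and a median of 0.000564. The difference lay within 0.02 of 0 in 92.15% of windows, and from -0.0295 at the 1st percentile to 0.0338 at the 99th. Within the control library, the odd-ranked and even-ranked means of the same windows differed by an SD of 0.0191. Those means are over different CpGs, so this SD also holds differences between positions. It is no measure of the spread between libraries. The mean difference was above 0 on 18 of 19 chromosomes and ranged from -0.000165 to 0.00155 between them. With 1 library on each side, a shift of this size cannot be told apart from a difference between libraries.

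Windows that moved far were few. Of the 20189 windows, 2 were at least 0.10 higher in ND1 cells (0.00991%) and 0 at least 0.10 lower. Among all CpG-dense windows the shares were 0.159% and 0.106%. At a limit of 0.05, 44 windows were higher (0.218%) and 9 lower (0.0446%), against 3.95% and 2.96% of all CpG-dense windows. The room for a fall was limited by the definition, since only 5128 of the chosen windows had 0.05 or more on even-ranked positions in control cells and 817 had 0.10 or more. The spread depended on the level. Windows whose odd-ranked control mean was 0.10 to 0.20 had an SD of 0.0222 around a mean difference of 0.00181, and those at 0.40 to 0.60 an SD of 0.0373 around 0.00305. At 0.80 or more the SD was 0.0264 around 0.00115. Fractions near 0 or 1 have a smaller counting spread than those near 0.5, and its part in these differences was not tested.

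**Figure D2:**
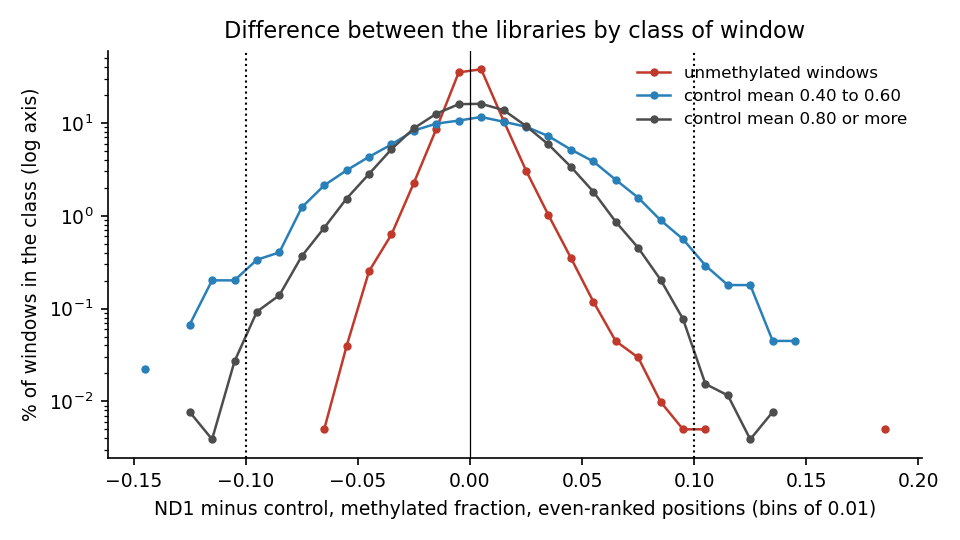
Share of windows (vertical log axis, in percent) by ND1 minus control methylated fraction on even-ranked positions (horizontal axis, bins of 0.01), for unmethylated windows (red) and for windows with an odd-ranked control mean of 0.40 to 0.60 (blue) or 0.80 or more (grey). The red curve is the narrowest, with an SD of 0.0114 against 0.0373 and 0.0264, and its single point near 0.18 is the Lhx2 window.

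Within the members, denser windows were lower and steadier. Windows with 20 to 29 positions averaged 0.0571 in control and 0.0596 in ND1 cells on even-ranked positions, with an SD of the difference of 0.0182. Windows with 40 to 59 positions averaged 0.0344 and 0.0351, with an SD of 0.0102. Windows with 80 positions or more averaged 0.0170 and 0.0174, with an SD of 0.00565. A mean over more positions also varies less, and that share of the narrowing was not separated. At the limit of the definition, 806 members averaged 0.09 to 0.10 in control and 0.0968 in ND1 cells, and 764 CpG-dense windows just outside averaged 0.10 to 0.11 in control and 0.107 in ND1 cells. With 20 positions there were 299 members, averaging 0.0572 in control and 0.0620 in ND1 cells, and 283 windows with 19 positions under the same limit averaged 0.0563 and 0.0589.

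Start sites of protein-coding genes lay in 8576 members (42.0%), and a further 608 held only the start of a non-coding gene. Another 9016 members (44.2%) lay inside a gene away from a listed start, 1613 (7.91%) lay between genes, and 591 on chromosome 18 were not assigned, because the start-site table used here lists no gene there. Exons, introns and UTRs were not distinguished. Most CpG-dense windows over a protein-coding start were members (78.8%), against 19.9% of those inside genes and 13.6% of those between genes. Members over a coding start were also the lowest, with even-ranked means of 0.0263 in control and 0.0269 in ND1 cells. Members between genes averaged 0.0534 and 0.0547. Around the 10075 coding start sites in members, the mean fraction of positions was 0.0114 in control and 0.0117 in ND1 cells over the last 100 bases before the start. It was 0.291 in both at 1 kb upstream, and 0.746 and 0.749 at 5 kb downstream. At 9988 other coding start sites the last 100 bases averaged 0.276 and 0.278.

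**Figure D3:**
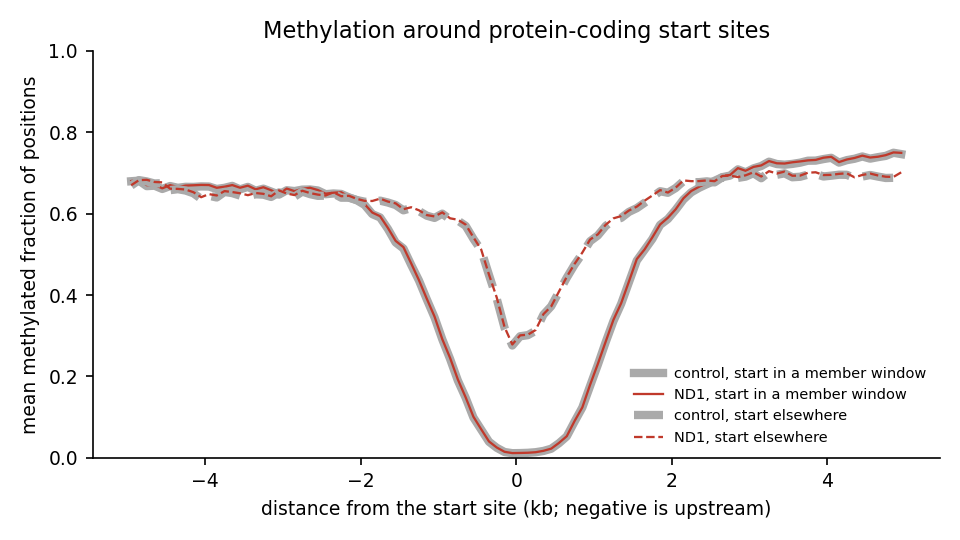
Mean methylated fraction of CpG positions (vertical axis) in bins of 100 bases by distance from protein-coding start sites (horizontal axis, kb, negative upstream) for starts in a member window (solid) and elsewhere (dashed), in the control (wide grey) and ND1 (thin red) libraries. The lines of the 2 libraries lie on top of each other, and the valley over member starts falls to 0.0114 in control and 0.0117 in ND1 cells.

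Adjacent members formed 13443 runs, of which 8153 (60.6%) were a single window, 4223 were 2 windows long, 931 were 3 to 4 and 136 were 5 or more. The longest runs, of 10 windows, lay over Ebf3 (chr7:137313000-137322999) and Skor1 (chr9:63142000-63151999), both transcriptional regulators of developing neurons. The Ebf3 run averaged 0.0314 in control and 0.0349 in ND1 cells, and the Skor1 run 0.0409 and 0.0405. Runs of 9 windows lay over Tnrc18, Nkx6-1, Dmrt3, Nkx2-2 and Meis2. Of these 5, Nkx6-1, Dmrt3, Nkx2-2 and Meis2 encode DNA-binding developmental factors. The Nkx2-2 run averaged 0.0580 in control and 0.0557 in ND1 cells. Outside the members the level rose steeply, from a position mean of 0.0298 in control and 0.0306 in ND1 cells inside to 0.386 and 0.389 in windows 1 kb away, and to 0.742 and 0.745 at 2 kb.

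The largest change was inside Lhx2. The window chr2:38354000-38354999, which is 2692 bases beyond the downstream of the 2 listed Lhx2 starts, held 39 positions. It averaged 0.0686 in control and 0.2564 in ND1 cells over all of them. All 39 positions were higher in ND1 cells, 33 of them by 0.10 or more. On the odd-ranked positions that placed it among the largest differences it went from 0.0848 to 0.2772, and on the even-ranked ones from 0.0515 to 0.2344. The 11 windows in a row after the start window were all higher in ND1 cells, by 0.0179 to 0.1878, and together averaged 0.131 in control and 0.213 in ND1 cells over 273 positions (chr2:38352000-38362999). Of these 11 windows, 5 were members. The windows over the starts did not take part: the downstream start window, whose upstream bases are printed above, averaged 0.0299 and 0.0329 over 93 positions, and the upstream one 0.0319 and 0.0177 over 51. Lhx2 RNA was 1.16, 1.16 and 1.64 FPKM in the control libraries at day 7 and 51.5, 49.6 and 49.0 in the ND1 libraries. The groups did not overlap, and the share of all tested genes without overlap was not counted. The limma change on log2(FPKM + 1) was 2.21 (SE 0.09, adjusted p = 6.15e-11) at day 2 and 4.47 (SE 0.09, adjusted p = 3.07e-15) at day 7, and cultured neurons held 33.0, 34.6 and 29.5 FPKM.

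Among the 12 windows with the largest fall on odd-ranked positions, the fall on even-ranked ones was largest inside Neurod1, which encodes a proneural basic helix-loop-helix factor. The window chr2:79454000-79454999, which lies 1637 bases from the start and inside the gene, averaged 0.0757 in control and 0.0224 in ND1 cells over 54 positions. On odd-ranked positions it went from 0.0840 to 0.0244 and on even-ranked ones from 0.0674 to 0.0204. The highest single fraction was 0.354 in control and 0.080 in ND1 cells, 9 positions were lower by 0.10 or more, and yet positions at 0 numbered 16 in control and only 4 in ND1 cells. The start window, whose upstream sequence is printed above, averaged 0.0313 and 0.0375 over 38 positions. Neurod1 RNA was 1.04, 1.15 and 1.08 FPKM in control libraries at day 2 and 3073, 3454 and 3337 in ND1 libraries. At day 7 it was 36.7, 32.6 and 32.5 FPKM in ND1 libraries and 1.33, 1.19 and 2.16 in control libraries. The log2 change was 10.62 at day 2 and 3.79 at day 7 (SE 0.10 each, adjusted p = 2.22e-16 and 9.64e-14, limma). If the transduced construct carries Neurod1 sequence, reads from it and from the chromosomal gene cannot be told apart in these files, in RNA or in DNA.

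**Figure D4:**
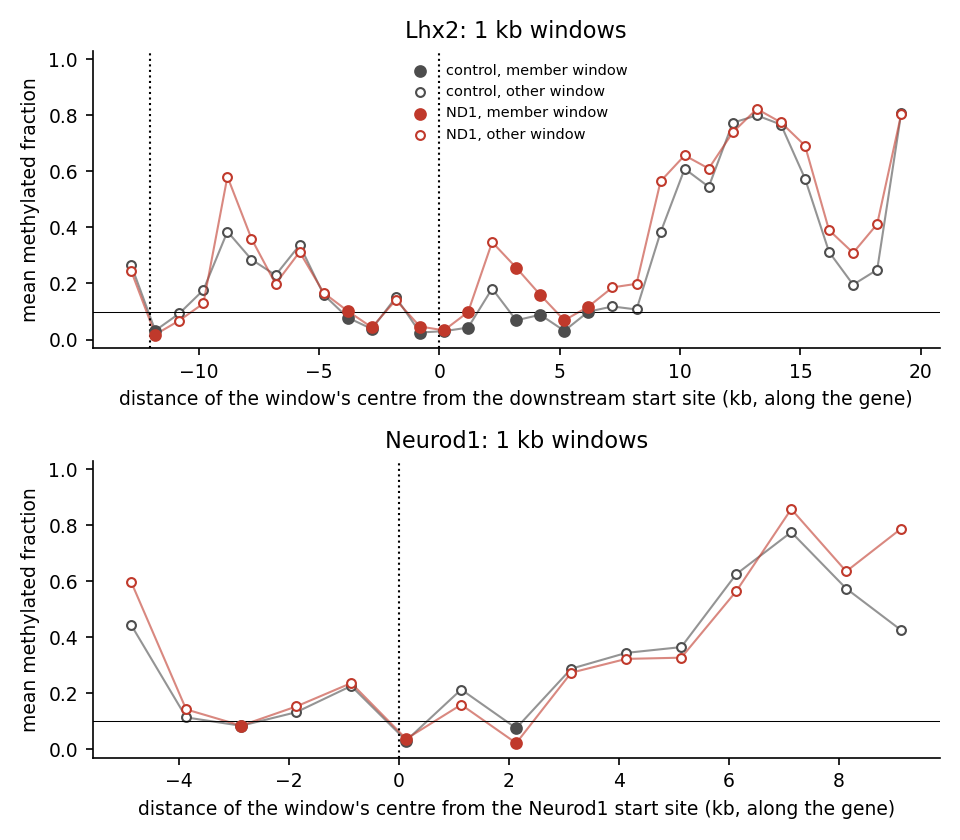
Mean methylated fraction (vertical axis) of 1 kb windows by distance of the window's centre from the downstream Lhx2 start (top) or the Neurod1 start (bottom), in kb along the gene, in control (grey) and ND1 (red) libraries, with members filled, other windows open, start sites dotted and the 0.10 limit as a thin line. Red lies above grey in the 11 windows after the Lhx2 start window and peaks at 0.2564 among members, while at Neurod1 the member 2 kb after the start falls from 0.0757 to 0.0224.

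Of the 12 windows with the largest rise on odd-ranked positions, 9 were also higher on even-ranked ones, with the median difference going from 0.0698 to 0.0345. Of the 12 with the largest fall, 8 were also lower, and the median went from -0.0488 to -0.00407. A window inside Tmcc3 (chr10:94515000-94515999, 121 bases from the start of the predicted gene Gm40743) held 70 positions and averaged 0.0939 in control and 0.1812 in ND1 cells on even-ranked ones. Of its 70 positions 49 were higher in ND1 cells and 6 lower. The adjacent window holds 1 of the Tmcc3 starts and is no member, at 0.1633 in control and 0.1553 in ND1 cells. RNA of Tmcc3, which encodes a membrane protein with coiled coils, was 48.6, 50.8 and 49.1 FPKM in control and 2.70, 2.19 and 2.25 in ND1 libraries at day 7, a log2 change of -3.90 (SE 0.05, adjusted p = 2.23e-16, limma). A window between genes at chr2:63702000-63702999 went from 0.0580 to 0.1316 on even-ranked positions. A window between genes (chr4:89272000-89272999), whose nearest listed start is that of the cell-cycle inhibitor locus Cdkn2a at 9193 bases, went from 0.0905 to 0.1222 on even-ranked positions. The start window that stands for Cdkn2a is a member and averaged 0.0426 in control and 0.0473 in ND1 cells. On even-ranked positions it differed by 0.00128. Cdkn2a RNA fell by 2.98 on the log2 scale at day 7 (SE 0.08, adjusted p = 6.44e-14, limma), from 11.9, 12.1 and 13.9 FPKM in control to 0.853, 0.775 and 0.568 in ND1 libraries.

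In all, 54 windows were at least 0.05 higher on odd-ranked positions, and 10 of these were also past 0.05 on even-ranked ones. In the other direction 5 windows were at least 0.05 lower, and 0 of these passed on even-ranked positions, though 4 kept the sign. The other window past 0.10 on even-ranked positions was chr2:165955000-165955999, between genes, at 0.1407 in control and 0.2431 in ND1 cells. Ruvbl1 was chosen after its values were seen, as a fall over a start site on both sets of positions. Its start window chr6:88465000-88465999 went from 0.0820 to 0.0376 on odd-ranked and from 0.0793 to 0.0251 on even-ranked positions. The fall rested on few positions: 29 of 38 were at 0 in control and 27 in ND1 cells, and 4 neighbouring CpGs (chr6:88465608-88465637) went from 0.562 to 0.750 in control to 0.105 to 0.20 in ND1 cells. These 4 lie in the right 500 bases of the window, where the mean difference was -0.0917, while in the left 500 bases it was 0.00887. The upstream sequence printed above showed no difference, with all its CpGs at 0. Ruvbl1 RNA was 18.6, 17.6 and 18.1 FPKM in control and 38.6, 37.1 and 37.5 in ND1 libraries at day 7 (log2 change 1.02, SE 0.05, adjusted p = 6.27e-11, limma).

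The RNA libraries matched their labels in direction. Summed FPKM of 14 microglial markers was 23679 to 24661 in control cells at day 7, 910 to 1251 in ND1 cells at day 7 and 28.1 to 32.3 in neurons. Summed FPKM of 12 neuronal markers was 23.4 to 32.1 in control cells at day 7 and 4913 to 4926 in ND1 cells. Summed levels of 9 fibroblast and mural markers were 51.0 to 65.0 in control and 49.2 to 54.1 in ND1 cells at day 7, those of 10 astrocyte markers 77.0 to 80.9 and 40.2 to 41.0, those of 10 oligodendrocyte markers 73.6 to 74.9 and 13.3 to 14.4, and those of 5 endothelial markers 2.8 to 3.5 and 0.6 to 0.7. Of the 5 endothelial markers, Cldn5 was listed at 0 in every control library. FPKM sums were 428966 to 739688 a library, and 10706 to 12089 genes reached 1 FPKM. The sums differed by group, at 700372 to 739688 in control and 447508 to 461030 in ND1 libraries at day 7. The main fit did not adjust for this.

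Genes that start in a member window were mostly expressed in every group. Of 24289 symbols, 9036 had a start in a member, whatever their other starts. Of the rest, 2061 had a start in a CpG-dense window that is no member. Another 6084 had starts only in windows with fewer than 20 shared positions, and 7108 were not placed. At day 7, 76.2% of member-start genes reached 1 FPKM in control, 83.1% in ND1 cells and 81.9% in neurons, against 45.5%, 49.8% and 48.4% of all genes. The median was 8.00 FPKM in control and 8.44 in ND1 cells. Genes starting in sparse windows were at 1 FPKM in 13.3%, 12.1% and 9.47%. Levels under 0.1 FPKM in all 5 groups were found for 288 member-start genes (3.19%), against 64.5% of sparse-start genes. These 288 genes thus had an unmethylated, CpG-dense start and RNA under that level.

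RNA calls among member-start genes are given beside those of all genes tested, with no test of the difference. Calls required a limma p under 0.05 after Benjamini-Hochberg adjustment and a log2 change of at least 1 in size. At day 7, 1970 of 8012 tested member-start genes were higher in ND1 cells (24.6%, against 25.7% of all 13599 tested) and 1738 were lower (21.7% against 24.5%). At day 2, 620 were higher (7.74% against 9.1%) and 13 lower (0.162% against 0.618%). The median log2 change at day 7 was 0.06 for member-start genes and 0.04 for all. For genes that start in sparse windows it was -0.81, with 18.2% higher and 45.2% lower. These shares passed a filter on expression (at least 1 FPKM in at least 3 libraries), which 88.7% of member-start genes and 18.7% of sparse-start genes met.

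Median start-window methylation was lower in classes of higher control RNA, while the median difference between ND1 and control cells was under 0.002 in each of the sets below. Over even-ranked positions, the start windows of 1932 genes that rose at day 7 had a median fraction of 0.0185 in control and 0.0193 in ND1 cells, and a median difference of 0.000601. Those of 1710 genes that fell had 0.0137 and 0.0135, with a median difference of 0.000385. Those of 4243 genes not called had 0.0121 and 0.0122, with a median difference of 0.000348. Among genes higher by log2 4 or more (211 genes) the median difference was 0.00190, and among genes lower by log2 3 or more (300 genes) it was 0.000449. In each of these sets the middle 50% of genes lay between -0.00455 and 0.00617. Genes share windows and libraries, so these medians are a description. By level, start windows of genes under 0.1 FPKM in control at day 7 had a median of 0.0340 in control and 0.0339 in ND1 cells. From 0.1 to under 1 FPKM the medians were 0.0245 and 0.0254, from 1 to under 10 FPKM 0.0132 and 0.0136, and at 10 FPKM or more 0.0118 and 0.0117.

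**Figure D5:**
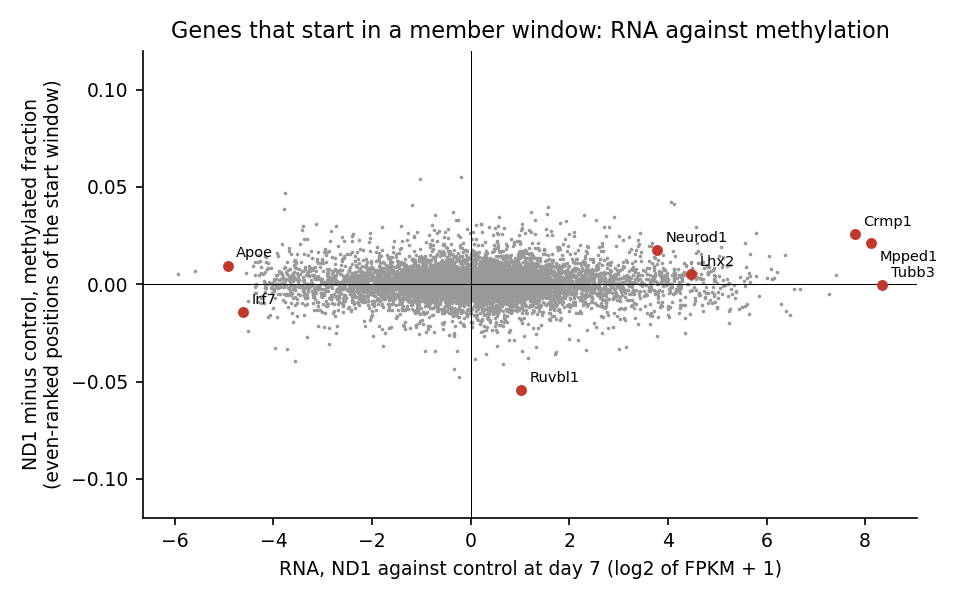
ND1 minus control methylated fraction on even-ranked positions of the start window (vertical axis) against the RNA change at day 7 on log2(FPKM + 1) (horizontal axis) for 7885 tested genes that start in a chosen window, with 8 genes named in red. RNA changes span both directions, while 96.9% of the genes lie within 0.02 of no methylation difference and the range is -0.0543 to 0.0550.

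Housekeeping genes gave the reference level. Among all 17181 symbols with a placed start, 9036 had a start in a member, which is the baseline for this and the following lists. Another 2061 had a CpG-dense start but none in a member. Of 15 listed housekeeping genes with a placed start, 14 started in a member, with control means of 0.00259 to 0.0436 and ND1 means of 0.00449 to 0.0454. All 14 were tested, and at day 7 there were 2 higher and 1 lower (25.7% and 24.5% of all tested genes were called higher and lower), with a median log2 change of -0.25 against 0.04 for all genes. The start window of Gapdh averaged 0.00259 in control and 0.00449 in ND1 cells, and its RNA was 307 to 327 FPKM in control and 368 to 385 in ND1 libraries at day 7, a log2 change of 0.23 that missed the size limit. Reads of Gapdh and of many ribosomal genes can be shared with processed pseudogenes, so their levels are uncertain. Srsf1, a splicing factor, rose by a log2 change of 1.91, and Hnrnpa2b1, an RNA-binding protein, by 1.35. Polr2a, the largest subunit of RNA polymerase II, fell by 1.00, at the size limit. It lost its call without control day 7 replicate 2 (-0.96) or 3 (-0.97), or without ND1 day 7 replicate 2 (-0.98) or 3 (-0.99), and with quantile normalization (-0.83).

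Developmental homeobox and patterning factors with a CpG-dense start had a start in a member whether or not RNA of the gene was found. Of all genes with a CpG-dense start, 9036 had a start in a member and 2061 did not. All 24 listed genes with a CpG-dense start had a start in a member, and any other starts of these genes were not counted. The member windows had control means of 0.0140 to 0.0851 and ND1 means of 0.0114 to 0.0836. Of these genes, 15 were under 0.1 FPKM in all 5 groups, and 4 passed the expression filter. Nkx6-1, a spinal cord and pancreas factor, was listed at 0 in all 15 libraries, while its start window averaged 0.0197 in control and 0.0188 in ND1 cells over 113 positions. At day 7, Lhx2, Dlx2 and Sox1 rose, by log2 4.47, 2.30 and 1.73, and Pax6, a factor of neural and eye development, did not pass the size limit (0.35). Dlx2, a forebrain interneuron factor, started in a window at 0.0202 in control and 0.0184 in ND1 cells. The Sox1 start window, of a neural progenitor factor, averaged 0.0166 and 0.020.

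Proneural and neuronal transcription factors started in members for 13 of the 20 with a placed start, at 0.00333 to 0.0468 in control and 0.00646 to 0.0567 in ND1 cells. The expression filter was passed by 11, of which 10 rose by day 7 and 0 fell, beside 25.7% higher and 24.5% lower among all tested genes. A gene such as Neurod2, near 0 in every control library, passes that filter only through the libraries where it is high, so this count is a description. Neurod2 RNA went from 0.0279 FPKM in control to 83.9 in ND1 cells at day 7 (means of 3), a log2 change of 6.37. Its start window went from 0.0445 to 0.0567 over all shared positions, whose control values chose the window. On even-ranked positions the 13 member windows of the list differed by -0.0116 to 0.0175. Sox11, which acts early in neuronal maturation, rose by 6.01 from a window at 0.0159 in control and 0.0152 in ND1 cells. Zeb2, a zinc-finger factor also expressed in microglia, had a log2 change of -0.75 and missed the size limit. Neurog1 was listed at 0 in all 15 libraries although its start window averaged 0.0468 and 0.0467. Myt1l and Tbr1, both CpG-dense at the start, lay just outside the limit at 0.111 and 0.107 in control and 0.0731 and 0.115 in ND1 cells.

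The 13 members among 18 neuronal cytoskeleton and synapse genes with a placed start ranged from 0.00935 to 0.0811 in control and from 0.00904 to 0.0780 in ND1 cells. All 13 passed the expression filter and all rose at day 7, where 25.7% of all tested genes did; as above, the filter can admit a gene through the libraries where it is high. Tubb3, the neuronal beta-tubulin, had 4.77, 4.27 and 6.48 FPKM in control and 2031, 1958 and 1974 in ND1 libraries at day 7, and 771, 887 and 915 in neurons. Its log2 change was 8.35 (SE 0.12, adjusted p = 2.96e-16, limma), and its start window averaged 0.0521 in control and 0.0520 in ND1 cells over 60 positions. Crmp1, a microtubule-associated protein of growing axons, had 2.29, 2.57 and 2.82 FPKM in control and 793, 779 and 787 in ND1 libraries. Its log2 change was 7.79, and its start window went from 0.0636 to 0.0780. On even-ranked positions the Crmp1 window rose from 0.0660 to 0.0919, a difference of 0.0259, and that of Tubb3 differed by -0.0004. Over chosen windows at protein-coding starts, the difference ran from -0.0230 at the 1st percentile to 0.0264 at the 99th. Those windows averaged 0.0263 in control cells, below the Crmp1 window, and the spread depended on the level. With 1 library on each side, the Crmp1 difference was not tested. RNA of Tubb3 and Crmp1 separated the groups without overlap, and the share of all tested genes that did so was not counted.

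Myeloid and microglial genes divided by CpG density. Among all 17181 symbols with a placed start, 9036 had a start in a member and 6084 only in windows with fewer than 20 shared positions. Of 18 listed genes with a placed start, 10 started in such sparse windows, among them Cx3cr1, P2ry12, Trem2 and Itgam. Another 7 started in members, at 0.00660 to 0.0535 in control and 0.00677 to 0.0483 in ND1 cells. At day 7, 6 of the 7 fell and Mef2c, a factor that neurons also express, rose by log2 3.28, beside 24.5% lower and 25.7% higher among all tested genes. Apoe, a lipid carrier, was 23836.5, 24155.8 and 22854.1 FPKM in control and 954, 642 and 768 in ND1 libraries, a log2 change of -4.92 (SE 0.11, adjusted p = 1.3e-14, limma). All 6 log2 changes were below -1, with -4.25 for Irf8, an interferon regulatory factor of microglia, -4.42 for Irf5, -3.91 for Cebpa, -3.08 for Runx1 and -1.36 for Sall1. The Irf8 start window averaged 0.00660 in control and 0.0126 in ND1 cells over 66 positions, and that of Cebpa 0.0131 and 0.00859 over 110. These are means over all shared positions, whose control values chose the windows. On even-ranked positions the 7 windows differed by -0.00490 to 0.00959. None of the 7 start windows reached 0.10 in ND1 cells. Microglial marker RNA fell over the same comparison, as given above, and how far these falls follow the number of microglia was not tested.

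Writers, erasers and readers of DNA methylation, a list that also holds Gadd45a and Gadd45b, started in members in 12 of 13 cases, at 0.00610 to 0.0428 in control and 0.00800 to 0.0514 in ND1 cells. Of the 11 tested, 1 rose and 2 fell by day 7 (25.7% and 24.5% of all tested genes), and the median log2 change was -0.12. Dnmt1, the maintenance methyltransferase, averaged 21.8 FPKM over the control and 32.6 over the ND1 libraries (log2 0.56). Dnmt3a, a de novo methyltransferase, averaged 28.5 and 14.7 (log2 -0.91), and neither passed the size limit. Tdg, a glycosylase of active demethylation, rose by log2 1.23, and by 0.92, under the size limit, with quantile normalization. Gadd45a and Gadd45b, stress-response genes with a proposed part in demethylation, fell, with log2 changes of -1.93 and -3.56. The start window of Dnmt3a averaged 0.0134 in control and 0.0265 in ND1 cells over all shared positions, whose control values chose the window. On even-ranked positions the 12 member windows of the list differed by -0.00598 to 0.0163.

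Binders of unmethylated CpG and subunits of trithorax or Polycomb complexes started in members in 13 of 14 cases. Their windows averaged 0.00411 to 0.0634 in control and 0.00580 to 0.0648 in ND1 cells. All 13 were tested, and at day 7 there were 4 higher and 2 lower, with a median log2 change of 0.31. With 25.7% higher and 24.5% lower among all tested genes, these counts say nothing particular of the list. Among the CXXC-domain genes, Kdm2b rose by log2 1.27 and Fbxl19 by 2.60. Among Polycomb genes, Ezh2, the H3K27 methyltransferase, rose by 2.45 and Jarid2 by 1.28, while Eed and Cbx7 fell, with log2 changes of -1.06 and -2.12. With quantile normalization Eed was at -0.98 and lost its call.

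Most listed germline and imprinted genes with a placed start lay outside the class. The lists were chosen with earlier results of these data known, so these counts are a description. Of all genes with a CpG-dense start, 9036 had a start in a member and 2061 did not. Of 15 germline genes with a placed start, 0 started in a member, and 14 started in CpG-dense windows that are no members. The lowest was Tdrd1, of the piRNA pathway, at 0.512 in control and 0.534 in ND1 cells, and the highest Dpep3 at 0.950 and 0.951. Of 14 imprinted genes with a placed start, 8 started in CpG-dense windows at intermediate levels, from 0.391 in control and 0.322 in ND1 cells at Kcnq1ot1 to 0.511 and 0.481 at Meg3. Another 4, Igf2, Grb10, Gnas and Inpp5f, had a start in a member, and any other starts of these genes were not described.

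By the rule of the 6 highest and 6 lowest day 7 changes, the highest were Tubb3, Mpped1, Crmp1, Actr3, Dpysl5 and Tuba1a. Mpped1 rose by log2 8.12, and its start window went from 0.0575 in control to 0.0822 in ND1 cells over 65 positions, and by 0.0214 on even-ranked ones. Dpysl5, a neuronal cytoskeleton regulator, rose by 7.26 with a window at 0.0217 and 0.0201. Tuba1a, the major alpha-tubulin of young neurons, rose by 6.69 with a window at 0.0288 and 0.0275, and its reads can be shared with near-identical tubulin genes. Actr3, a subunit of the actin-branching complex, was listed at 0 in all 6 control libraries and in ND1 day 2 replicates 1 and 2, and at 407 FPKM in ND1 day 2 replicate 3. Its day 7 ND1 values were 166, 170 and 171 FPKM, so its change is not interpreted. The lowest were Lipa, Rps27, Apoe, Irf7, Pik3ap1 and Tmem106a. Irf7, an interferon regulatory factor, fell by 4.62, from 743, 744 and 732 FPKM in control to 33.8, 26.1 and 28.0 in ND1 libraries, with a window at 0.0420 and 0.0319. Pik3ap1, an adaptor of immune signalling, fell by 4.58 with a window at 0.0965 and 0.0884. Tmem106a fell by 4.56, and its window went from 0.0843 to 0.1041 over all positions, past the 0.10 limit in ND1 cells, and by 0.00585 on even-ranked ones. Lipa, a lysosomal lipase, was listed at 0 in control day 2 replicate 2 and in ND1 day 7 replicate 3, so its change of -5.93 (SE 1.92) is uncertain, and without ND1 day 7 replicate 3 its adjusted p was 0.0566 (limma). Rps27, a ribosomal gene with many processed copies, had 971, 280 and 144 FPKM in control at day 7 and 4.01 to 10.99 in ND1 libraries, with 5.84 to 9.53 in control at day 2.

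The 250 bases before member start sites were CpG-rich in sequence. The rule asks for at least 20 shared CpG positions in the window, so this follows largely from the choice of windows. Over 10075 coding start sites in members the median was 18 CpGs, against 10 at 2476 starts in other CpG-dense windows, 2 at 7512 starts in sparse windows and 10 over all 20063. The ratio of observed to expected CpG had a median of 0.787 at member starts and 0.171 at sparse ones. The GC box GGGCGG, read on both strands, occurred in 67.4% of member stretches and 43.4% of all. The letters CCGGAAG, on both strands, occurred in 14.9% and 9.22%. The TATA letters TATAAA, on both strands, were rarer at member starts, in 4.81% against 11.7% of all and 22.2% of sparse starts. GGGCGG and CCGGAAG each hold a CpG and TATAAA holds none, so their shares also depend on the choice of windows. These matches describe letters only and show no binding.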

How the data were processed

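Bisulfite libraries were made by post-bisulfite adaptor tagging, per the labels' protocols. The authors deposited 1 methylated fraction per CpG position on mm10, with no read counts; the sources used here do not name the aligner, the caller or a coverage minimum. The control file lists 15809560 positions and the ND1 file 16265647, and 14695943 on chromosomes 1 to 19 are in both. The depth behind a fraction is unknown. The authors also deposited FPKM (fragments scaled for transcript length and for the mapped total) for each gene symbol, made with TopHat, Bowtie2, Cuffdiff and Cufflinks on mm10, per the submitters' processing notes. RNA depth is not given as counts, and FPKM allow no count test. Another 10 immunoprecipitation samples were not analysed here.

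Windows were computed in Python 3.11.15 with numpy 2.4.6 and pandas 2.3.3, and a window mean gives each position the same weight. Start sites and sequences came from a RefSeq table (GRCm38.p6) that places 17181 of 24289 symbols, 821 through a synonym; 4 RNA entries with a repeated symbol were left out. A gene with several starts counted as starting in a member if any of its starts lay in a member, whatever its other starts. Otherwise it counted as CpG-dense if any start window was. Among its start windows of that class, the window with most positions stood for the gene. RNA was fitted with limma 3.58.1 in R 4.3.3 on log2(FPKM + 1) over all 5 groups, with an intensity trend, without a replicate block and with 10 residual degrees of freedom. The 13599 genes fitted reached 1 FPKM in 3 or more libraries. This scale understates changes of low genes. The window and RNA steps were tested on simulated data.

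The members, gene lists and tests were chosen with earlier results of these data known. Windows named in the text are the 12 highest and 12 lowest differences on odd-ranked positions, those next to the limits and the longest runs, of which only a selection is given, and named genes are listed genes and the 6 highest and 6 lowest day 7 changes. Alternatives tried were other limits on positions and level, a shifted grid, shorter windows, other splits of positions, choice on the ND1 library, and for RNA another pseudocount, filters, quantile normalization, a replicate block, leaving out each library and a wider start window.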

Additional observations from a re-analysis of the deposited data

Results flagged for a closer look

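Of the 44 tested genes that the text names, 33 had an effect of ND1 on RNA that differed between day 7 and day 2, tested as an interaction in limma (difference of at least 1 on the log2 scale, adjusted p from 3.09e-13 to 0.00837, SE from 0.06 to 2.72). The share of all tested genes that met this rule is not given here. Of all 13599 tested genes, 25.7% were called higher and 24.5% lower at day 7, and 9.1% and 0.618% at day 2. Those are calls at single days and give no baseline for the interaction. Some of the named genes were picked for their day 7 changes, so the count is a description. Each value that follows is the day 7 effect minus the day 2 effect in log2(FPKM + 1). A positive value means that the gene was more strongly raised, or less strongly lowered, at day 7.

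Genes that hold a window named above for its methylation difference were among them, with 2.26 for Lhx2, -6.83 for Neurod1 and -3.26 for Tmcc3. Cdkn2a, whose start lies 9193 bases from such a window, had -2.77. In ND1 cells Neurod1 RNA averaged 3288 FPKM at day 2 and 33.9 at day 7.

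Further differences were 3.65 for Tubb3, 2.68 for Mpped1, 3.18 for Crmp1, 2.93 for Dpysl5, 2.47 for Tuba1a, 2.38 for Neurod2, 3.01 for Sox11, 1.94 for Dlx2 and 1.15 for Sox1.

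Among myeloid and immune genes the differences were -4.42 for Apoe, -4.25 for Irf7, -3.82 for Pik3ap1, -3.88 for Tmem106a, -3.96 for Irf8, -3.62 for Irf5, -3.59 for Cebpa, -3.04 for Runx1 and -1.22 for Sall1, and 1.5 for Mef2c. Control levels also differed between days: Apoe had 2924 to 2956 FPKM in control at day 2 and 22854.1 to 24155.8 at day 7.

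Among genes of chromatin and RNA processing the differences were 1.63 for Fbxl19, 2.29 for Ezh2, 1.1 for Jarid2, -2.06 for Cbx7, -1.68 for Gadd45a, -2.34 for Gadd45b, 1.55 for Srsf1 and 1.23 for Hnrnpa2b1. The values of -8.78 for Lipa and -5.63 for Rps27 rest on uneven or 0 values in single libraries, as described above. Groups of 3 libraries are too small for a test of single outlying libraries, and the methylation libraries have no second time point.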

How the results depend on the processing

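The 20404 members became 13994 to 25654 under other limits on positions or level, a grid shifted by 500 bases, choice on the ND1 library or all control positions, and 40996 with windows of 500 bases. The mean difference of 0.000922 ranged from 0.000535 to 0.00121 and moved by less than the SD over chromosomes (0.000435). The count of windows at least 0.10 apart, 2 with the main setting, was 10 with 10 or more positions (6 higher, 4 lower), 0 with 40 or more, 0 with a mean under 0.05, 4 with a mean under 0.20, 1 on the shifted grid, 34 with windows of 500 bases (24 higher, 10 lower), 0 with choice on the ND1 library, 1 with the odd and even sets exchanged, 1 over all positions and 21 with the left 500 bases of a window choosing and the right 500 measured (13 higher, 8 lower). It was 53 at a limit of 0.05 and 0 at 0.20. As a description, the differences on odd-ranked and even-ranked positions had a Pearson r of 0.185 over 20189 windows, and those of the left and right 500 bases 0.0402 over 14001; each pair shares its libraries and window. The Lhx2 rise was 0.2387 on the left side of its window, the Tmcc3 rise 0.1711 on the right and 0.0487 on the left, and the Neurod1 difference -0.1054 on the right and -0.0175 on the left. For Ruvbl1 the right side gave -0.0917 and the left 0.00887, the opposite direction. The left-side values were added after seeing the data.

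Member-start genes called at day 2 numbered 633, and 1170 with a pseudocount of 0.1 in place of 1 (1135 higher, 35 lower). They numbered 3708 at day 7. With quantile normalization 437 were called at day 2 (405 higher and 32 lower, against 620 and 13 in the main fit). At day 7 it gave 3739. Leaving out 1 library at a time gave 603 to 660 at day 2 and 3678 to 3718 at day 7. With the replicate number as a block, 633 and 3709 were called. The numbers do not pair the libraries: of 30 same-number pairs between groups, 2 had a correlation of deviations over 0.1 (range -0.226 to 0.161). Of 1486 alternative values for the 44 named genes 0 changed sign as a call, 9 lost their call and 4 gained one. Those that lost it were Lipa, Polr2a, Tdg, Eed and Gadd45b. Unknown read depth limits every single window, and 1 library a group allows no test of methylation.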
